A study of Homo sapiens with 5 samples.

Results

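Genes that build cholesterol and fatty acids were followed in MonoMac6 cells, an established human monocytic cell line, cultured without an added eicosanoid or with 1 of 4 eicosanoids. A list of 28 genes was used: enzymes of the sterol pathway and of fatty acid synthesis, the SREBP transcription factors with the proteins that control them, and a sterol carrier. A gene was included where a probe set carried its symbol and no other, which gave 58 probe sets for 26 of the 28 genes, out of 15374 genes measured in all. FDFT1 had no probe set listed under its name, and both probe sets of CYP51A1 carried 2 symbols, so these 2 genes have no value here. The 5 groups were unstimulated cells and cells given 1 of 2 leukotrienes (B4 or C4) or 1 of 2 lipoxins (A4 or B4), each dissolved in DMSO and added at 100 nM for 12 h. Every group was read on 1 array. Whether the unstimulated cells received DMSO, and how much serum lipid the medium held, was not stated. The study asks how these lipid mediators, called pro- and anti-inflammatory in its title, alter mRNA levels of monocytic cells. With 1 array per group no difference below has a replicate error or a test, and all 4 comparisons with unstimulated cells share the same unstimulated array, so an odd value on that array would enter all 4.

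Cells build cholesterol from acetyl-CoA through mevalonate, farnesyl diphosphate, squalene and lanosterol, and build palmitate from the same acetyl-CoA through malonyl-CoA. The genes of both routes are switched on by the SREBP transcription factors, which SREBF1 and SREBF2 encode. SREBPs are held in the endoplasmic reticulum by INSIG proteins while sterols are plentiful and are escorted to the Golgi by SCAP when they are scarce. SREBPs activate promoters together with NF-Y, which binds CCAAT boxes, and with Sp1. In macrophages the pathway is also tied to liver X receptors, which induce SREBF1, and to the supply of membrane lipid.

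The listed genes share this control, so their promoters were searched for its motifs, apart from their signals. Promoter windows, from 250 bases before to 50 bases after a gene start, were taken from RefSeq (GRCh38.p14), which held 32 windows for 24 of the 28 genes; ACAT2, FDFT1, SQLE and FASN were not matched. Both strands were searched for the SREBP motif TCACNCCAC, the NF-Y motif CCAAT and the Sp1 motif GGGCGG. The end of an SREBP motif can share a base with a CCAAT box; in the windows printed here the motifs lie apart. A CCAAT box was found in at least 1 window of 19 of the 24 genes (79.2%), against 39.7% of the 27305 genes in the table. Counted by window, it was in 23 of 32 (71.9%), against 34.6% of 35116 windows; windows of a gene with several starts can overlap and then share a box. In 14 of the 24 genes a single window held 2 or more CCAAT boxes, against 12.9% of all genes. PMVK, CYP51A1, SREBF1, SCAP and ELOVL6 had none. MVK and NSDHL held 5 each, and the number of boxes was not compared with the signals. In NSDHL 2 of the 5 overlap in the stretch CCAATTGG, which reads as a box on either strand and was counted on both. A window of IDI1 holds the same stretch. GGGCGG was found in 23 of the 24 genes (all but NSDHL), against 48.3% of all genes, and the SREBP motif in this spelling in 1 gene, SREBF2, against 1.39% of all genes. These are matches of letters, not measured binding, and looser spellings of the SREBP motif were not searched. The shares over all genes were not matched to the listed genes in GC content or expression. GGGCGG holds only G and C, and the part of GC content in these shares was not tested. Printed here are the windows of SREBF2, which holds the SREBP motif, of MSMO1, with 4 CCAAT boxes, and of SREBF1, which has neither; the last 2 were chosen after their signals were seen. They lie at chr22:41832855-41833154 (plus strand), chr4:165327419-165327718 (plus strand) and chr17:17836937-17837236 (minus strand). Capitals mark the SREBP motif and the CCAAT boxes on either strand, where ATTGG is CCAAT read on the other strand.
SREBF2: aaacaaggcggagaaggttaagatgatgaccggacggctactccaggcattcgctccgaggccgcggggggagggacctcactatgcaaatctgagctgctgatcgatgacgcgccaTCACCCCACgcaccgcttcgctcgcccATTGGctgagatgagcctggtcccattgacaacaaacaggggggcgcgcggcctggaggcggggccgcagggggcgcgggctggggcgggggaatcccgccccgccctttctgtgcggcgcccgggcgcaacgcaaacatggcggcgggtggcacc
MSMO1: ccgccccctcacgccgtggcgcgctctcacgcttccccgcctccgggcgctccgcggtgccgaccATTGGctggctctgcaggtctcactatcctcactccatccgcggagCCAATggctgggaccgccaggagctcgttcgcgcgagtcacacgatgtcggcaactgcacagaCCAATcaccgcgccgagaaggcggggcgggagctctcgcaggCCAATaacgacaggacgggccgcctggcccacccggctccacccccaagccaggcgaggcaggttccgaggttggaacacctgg
SREBF1: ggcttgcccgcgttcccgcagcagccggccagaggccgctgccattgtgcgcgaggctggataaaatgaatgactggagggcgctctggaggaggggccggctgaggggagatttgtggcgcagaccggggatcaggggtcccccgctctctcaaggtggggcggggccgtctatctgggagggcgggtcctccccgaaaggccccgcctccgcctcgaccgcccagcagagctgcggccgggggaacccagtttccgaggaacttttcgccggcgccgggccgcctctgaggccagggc
In SREBF2 the SREBP motif begins 133 bases and the CCAAT box 106 bases before the start. In MSMO1 the 4 CCAAT boxes begin 185, 139, 76 and 34 bases before it.

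**Figure D1:**
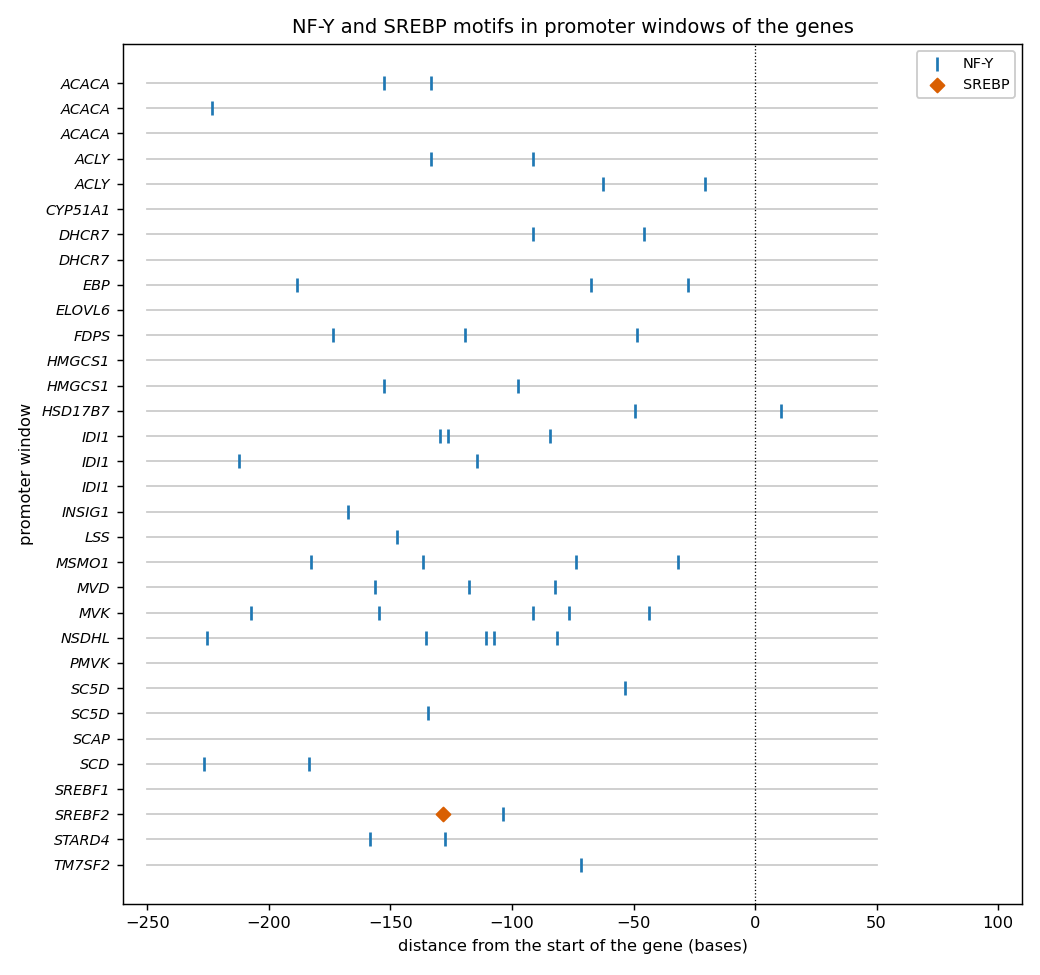
Positions of the NF-Y motif (blue bars) and the SREBP motif (orange diamond) in the 32 promoter windows, with distance from the gene start in bases on the horizontal axis; a gene appears once for each start RefSeq lists. CCAAT boxes are in 23 of the 32 windows, and the SREBP motif is in the window of SREBF2 alone.

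The arrays were of similar quality in the transcripts that could be checked, with differences in ribosomal RNA and at the bright end. The ratio of 3′ to 5′ signal was 0.996 to 1.06 for GAPDH and 1.10 to 1.13 for ACTB over the 5 arrays. For 18S rRNA, the middle probe set read 186 on the unstimulated array, 365 with lipoxin A4, 913 with leukotriene B4, 1056 with lipoxin B4 and 3069 with leukotriene C4. Bright probe sets read low on the lipoxin B4 array: the spiked bacterial cre transcript stood at -0.38 and -0.33 (log2) relative to the unstimulated array, and among the 709 genes with a mean signal of 8000 and over the median difference was -0.09. On the leukotriene C4 array the median difference of genes with a mean signal of at least 500 was 0.11, against 0.05 on each of the other stimulated arrays. Of 12 monocyte and macrophage markers, 9 were measured, led by LYZ with a signal of 49119 in unstimulated cells. CD14 was at 225. The summed signal of the 9 was 76598 in unstimulated cells, 68381 with leukotriene B4, 72445 with leukotriene C4, 70308 with lipoxin A4 and 56106 with lipoxin B4. LYZ (36105 with lipoxin B4) and CEBPA (18296 in unstimulated cells) made up most of the sum. SPI1 was lower on all 4 stimulated arrays, at -0.69, -0.39, -0.28 and -0.49 in that order. The number of the 9 above their unstimulated level was 0, 3, 2 and 3. The part of these markers in the results was not tested. Markers of T cells, B cells, erythroid cells, adipocytes and hepatocytes reached at most 189, 168, 142, 131 and 105, and the fibroblast and endothelial list reached 5138 through PECAM1, which monocytes also express.

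Most of the listed genes were bright and differed little between the 5 arrays. Of the 26 genes, 25 were above the floor (a signal of 48.7) on every array, with mean signals from 331 for MVD to 18286 for FDPS and a median of 3977. Of these 25 genes, 12 were brighter than 90% of measured genes and 24 were brighter than 60% of them. The highest of the 5 signals exceeded the lowest by 1.24-fold in the median gene. That fold was under 1.5 for 22 genes and higher for MVD (1.51), SREBF1 (1.65) and FASN (1.72). ELOVL6, which lengthens palmitate, passed the filter only through the leukotriene C4 array (62.8) and lay under the floor on the other 4, so it has no measured difference. Probe sets bind with different affinity, so each gene is compared between arrays and no gene's signal is set against another's, except for its rank in brightness.

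**Figure D2:**
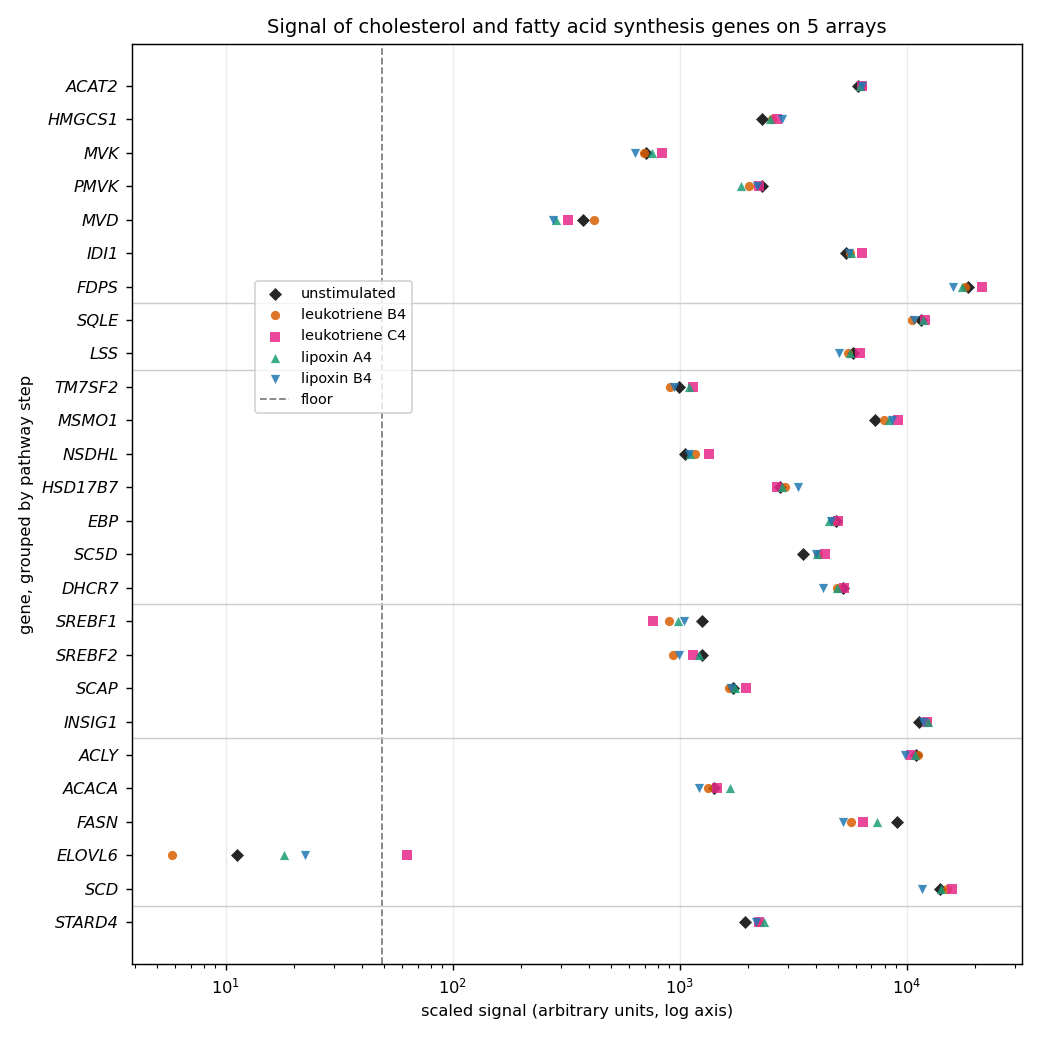
Scaled signal (log axis) of the 26 genes on the 5 arrays, 1 symbol per array, with genes in pathway order and grey lines between the groups. For most genes the symbols nearly coincide; FASN and SREBF1 are highest on the unstimulated array, and ELOVL6 passes the floor (dashed line) with leukotriene C4 only.

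The mevalonate steps gave small differences in both directions. ACAT2, the cytosolic thiolase that starts the route, was the steadiest of the 25 genes, with 6081 in unstimulated cells, 6329 and 6327 with leukotrienes B4 and C4, and 6245 and 6375 with lipoxins A4 and B4. HMGCS1, which adds the next acetyl unit, had 2304 in unstimulated cells, 2554 and 2698 with leukotrienes B4 and C4, and 2493 and 2835 with lipoxins A4 and B4. The unstimulated array was the lowest of the 5 for HMGCS1, with log2 differences of 0.15, 0.23, 0.11 and 0.30 in the same order; its dimmer probe set gave 0.46, 0.31, 0.22 and 0.12, so both were above 0 but ranked the compounds differently. IDI1, the isomerase of isopentenyl diphosphate, had 5384, 5629, 6376, 5705 and 5554. Its highest array was leukotriene C4 on each of its 3 brightest probe sets, at 0.24, 0.51 and 0.12 over the unstimulated array. All 3 are of a type the manufacturer marks as open to cross-hybridisation. The dimmest probe set of IDI1, not of that type and above the floor on 3 arrays, went the other way with leukotriene C4 (60.6 against 86.5, log2 -0.51). MVK, the mevalonate kinase, had 713 in unstimulated cells, 698, 832, 756 and 638 with the 4 compounds in the same order, and was likewise highest with leukotriene C4 (0.22), while 2 of its dimmer probe sets gave 0.43 each. PMVK, the next kinase, was highest in unstimulated cells (2300) and lowest with lipoxin A4 (1866, log2 -0.30), and only 1.45% of the 2420 genes of its signal class (2000 to 8000) were as low on that array. MVD, the decarboxylase, was dim. It had 376 in unstimulated cells, 418 and 323 with leukotrienes B4 and C4, and 284 and 277 with lipoxins A4 and B4. The lipoxin arrays were thus its 2 lowest, but 19.6% and 19.7% of genes under a signal of 500 were at least as low on those arrays. FDPS, which makes farnesyl diphosphate, ran from 16061 with lipoxin B4 to 21477 with leukotriene C4, with 18685 in unstimulated cells.

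Squalene and lanosterol steps were close to the unstimulated level. SQLE, the squalene epoxidase, had 11555 in unstimulated cells, 10613 and 12048 with leukotrienes B4 and C4, and 11796 and 10760 with lipoxins A4 and B4. LSS, the lanosterol synthase, had 5776, 5492, 6259, 5615 and 5054 in that order. On their brightest probe sets both genes were highest with leukotriene C4, at log2 differences of 0.06 and 0.12, which is no more than the median of 0.12 to 0.14 of all genes of 2000 and over on that array. The other probe sets of SQLE disagreed for leukotriene C4, with 0.20, -0.08 and, on the dimmest, -0.91. The other probe sets of LSS went both ways: the second gave -0.31, -0.23, -0.29 and -0.57, and the dimmest, at 60.3 in unstimulated cells, gave 0.87, 0.77, 0.54 and 0.90.

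Among the steps after lanosterol, MSMO1, SC5D and NSDHL had their lowest signal on the unstimulated array. MSMO1, the methylsterol monooxygenase, had 7267 in unstimulated cells, 7971 and 9155 with leukotrienes B4 and C4, and 8380 and 8657 with lipoxins A4 and B4. The log2 differences were 0.13, 0.33, 0.21 and 0.25, and 3.53%, 3.81% and 2.12% of the 709 genes of its class (8000 and over) were as high with leukotriene C4 and the lipoxins (A4, then B4), and 16.6% with leukotriene B4. SC5D, the sterol desaturase that acts just before DHCR7, had 3490 in unstimulated cells and 4073, 4385, 4021 and 3970 on the stimulated arrays, with log2 differences of 0.22, 0.33, 0.20 and 0.19. On a dimmer SC5D probe set they were 0.20, -0.06, -0.09 and 0.21. NSDHL, the decarboxylating dehydrogenase that follows MSMO1, was highest with leukotriene C4 (1342 against 1053, log2 0.35; 0.63 on its other probe set), with 1166 for leukotriene B4, 1116 for lipoxin A4 and 1099 for lipoxin B4. TM7SF2, a sterol reductase, had 994, 908, 1146, 1103 and 940, and the isomerase EBP had 4873, 4755, 5004, 4537 and 4647, in the order unstimulated, leukotrienes B4 and C4, lipoxins A4 and B4. The highest signal exceeded the lowest by 1.26-fold for TM7SF2 and by 1.10-fold for EBP. HSD17B7, the ketoreductase, was highest with lipoxin B4 (3322 against 2766, log2 0.26) and between 2696 and 2906 on the other 3. Its only probe set is of the type marked as open to cross-hybridisation, as are the 3 brightest of IDI1. DHCR7, whose product is cholesterol itself, was lowest with lipoxin B4 on its brightest probe set (4263 against 5231, log2 -0.30) and between 4946 and 5275 on the other 3. Its second probe set had 3882 in unstimulated cells, 3548 and 4706 with leukotrienes B4 and C4, and 3452 and 3494 with lipoxins A4 and B4, and so was lowest with lipoxin A4 and highest with leukotriene C4 (0.28).

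The regulators divided. SREBF1, which encodes the SREBP forms that favour fatty acid genes, had 1259 in unstimulated cells, 893 with leukotriene B4, 763 with leukotriene C4, 988 with lipoxin A4 and 1046 with lipoxin B4. The unstimulated array was the highest, and the log2 differences were -0.50, -0.72, -0.35 and -0.27. With leukotriene C4 the difference in percent is -39.4, and 0.580% of the 3968 genes with a mean signal of 500 to 2000 were as low. A second, dimmer SREBF1 probe set read 141, 133, 51.4, 80.4 and 95.1 and was also lowest with leukotriene C4, at -1.45. SREBF2, which encodes the SREBP that favours sterol genes, had 1249, 935, 1148, 1219 and 997 on its brightest probe set. That probe set was lowest with leukotriene B4 (-0.42) and lipoxin B4 (-0.32). The other probe sets of SREBF2 did not follow it: the second differed by 0.05, -0.07, -0.02 and -0.09, and the dimmest, at the floor in unstimulated cells (49.0), read 116, 154, 117 and 111. SCAP, the escort, had 1723, 1657, 1954, 1758 and 1687, which is within 1.18-fold. INSIG1, the retention protein and itself a target of SREBPs, had 11292 in unstimulated cells and 12186, 12360, 12396 and 11799 with the leukotrienes (B4, C4) and lipoxins (A4, B4). Its differences of 0.11, 0.13, 0.13 and 0.06 were small, and its dimmest probe set (5895 in unstimulated cells) gave -0.02, -0.16, -0.02 and -0.34.

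Fatty acid synthesis held the gene with the largest fold between arrays among the 25, FASN. FASN, the synthase that makes palmitate, had a signal of 9069 in unstimulated cells, 5696 with leukotriene B4, 6453 with leukotriene C4, 7375 with lipoxin A4 and 5267 with lipoxin B4. The unstimulated array was the highest and lipoxin A4 the nearest to it, with log2 differences of -0.67, -0.49, -0.30 and -0.78 for the 4 compounds in that order. In percent these are -37.2, -28.8, -18.7 and -41.9. Among the 2420 genes with a mean signal of 2000 to 8000, 0.455%, 0.868%, 1.49% and 0.248% were as low on the respective arrays. Its other probe set, at 123 in unstimulated cells, read 62.7, 69.1, 115 and 105 and so was lower on the leukotriene arrays (-0.97 and -0.83) than on the lipoxin arrays (-0.09 and -0.22). That dimmer probe set is of the type marked as open to cross-hybridisation. When both probe sets were averaged, FASN with lipoxin B4 was -0.50 and no longer 1.5-fold lower. The unstimulated array, on which FASN and SREBF1 were highest, was also the one with the least 18S rRNA signal (186), and the part of rRNA in these differences was not tested.

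ACLY, which makes cytosolic acetyl-CoA from citrate, had 11019, 11281, 10425, 10843 and 9875, and ACACA, the acetyl-CoA carboxylase, had 1424, 1332, 1465, 1662 and 1215, in the order unstimulated, leukotrienes B4 and C4, lipoxins A4 and B4. On these probe sets both were lowest with lipoxin B4, at -0.16 and -0.23. All 3 ACLY probe sets were lowest there, and ACLY is among the genes of 8000 and over, whose median was -0.09 on that array. The dimmer ACACA probe set went the other way, with 283 in unstimulated cells, 246 with leukotriene B4, 379 with leukotriene C4, 337 with lipoxin A4 and 330 with lipoxin B4 (log2 0.22), so no direction can be given for ACACA with lipoxin B4. SCD, the desaturase that puts the first double bond into stearate and palmitate, had 14033, 15092, 15822, 14235 and 11631 in that order. It was lowest with lipoxin B4 on all 4 of its probe sets, at -0.27 on the brightest and -0.49, -0.75 and -0.82 on the others. The probe set at -0.82 is of the type marked as open to cross-hybridisation. On that array 20.7% of the 709 genes of 8000 and over were as low as the brightest SCD probe set. For leukotriene C4 the probe sets of SCD went both ways, from -0.45 to 0.35, so no direction can be given. ACLY, ACACA, FASN and SREBF1 all lie on chromosome 17. STARD4, a carrier that moves cholesterol between membranes, had 1931 in unstimulated cells and 2221, 2232, 2362 and 2173 on the stimulated arrays; it was lowest without eicosanoid, and its log2 differences were 0.20, 0.21, 0.29 and 0.17.

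**Figure D3:**
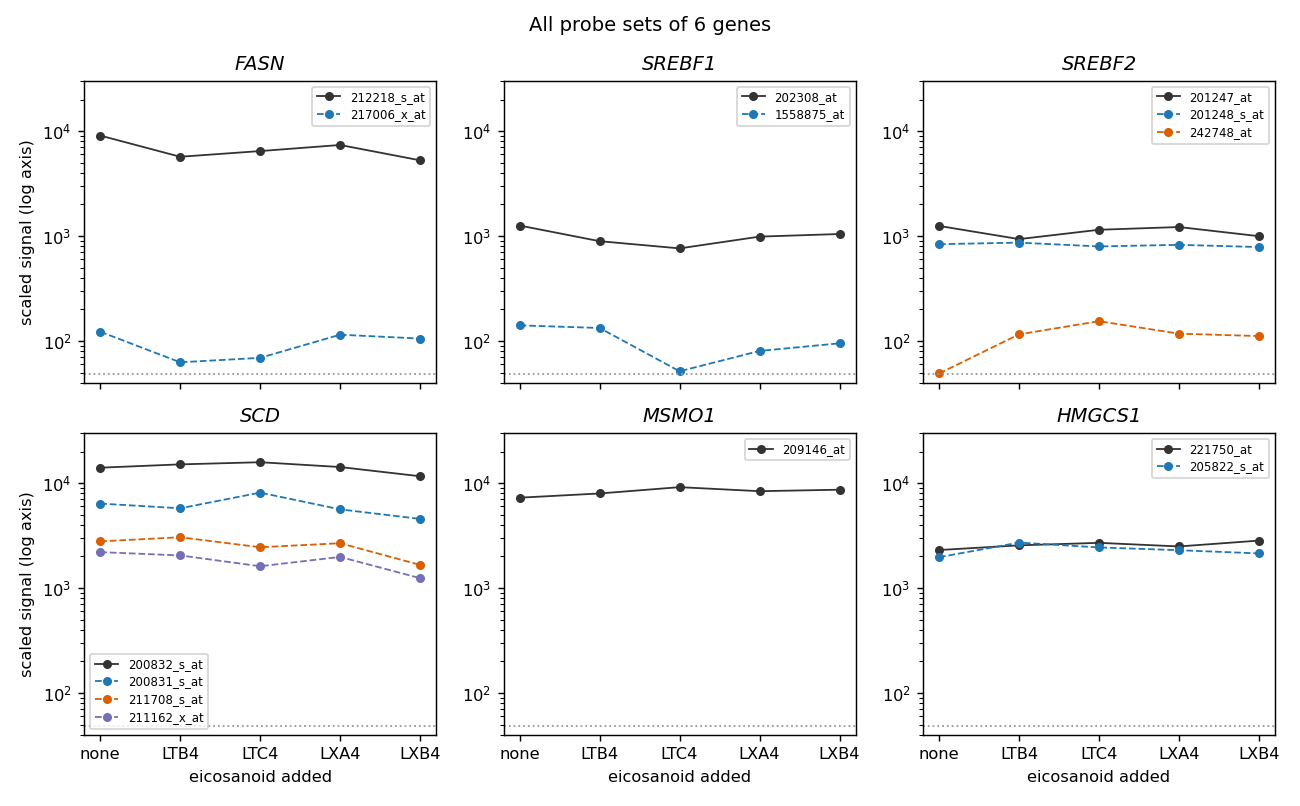
Scaled signal (log axis) of every probe set of FASN, SREBF1, SREBF2, SCD, MSMO1 and HMGCS1 on the 5 arrays (none, unstimulated; LTB4 and LTC4, leukotrienes; LXA4 and LXB4, lipoxins); each line joins the values of 1 probe set, solid for the one used for the gene, and the dotted line is the floor. Both FASN probe sets are highest without eicosanoid, the 4 SCD probe sets are lowest with lipoxin B4, and the 3 SREBF2 probe sets disagree.

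Counted over the list, few genes reached a 1.5-fold difference. Of the 26 genes, 1 was at least 1.5-fold lower with leukotriene B4 (FASN), against 7.11% of all measured genes and 1.03% of those with a mean signal of at least 500. With leukotriene C4 1 was lower (SREBF1), against 6.52% and 0.986%. Lipoxin A4 gave 0 lower, against 6.65% and 0.352%, and lipoxin B4 gave 1 (FASN), against 7.86% and 1.25%. No listed gene was 1.5-fold higher with any compound, against 3.47%, 5.67%, 3.23% and 3.24% of all genes and 0.521%, 0.761%, 0.352% and 0.93% of those of at least 500. The listed genes are bright, so the shares for genes of at least 500 are the nearer background, and 1 gene of 26 is 3.85%. None was 2-fold apart from unstimulated cells, against 2.43%, 2.84%, 2.39% and 2.47% of all genes and 0.183%, 0.183%, 0.0423% and 0.197% of those of at least 500. In either direction together, 10.6%, 12.2%, 9.88% and 11.1% of all genes were 1.5-fold apart, and 1.55%, 1.75%, 0.705% and 2.18% of those of at least 500.

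The list medians were near 0 and were read against bright genes, which shifted with the array. With leukotriene B4 the median of the 26 genes was -0.02, with 12 above and 13 below 0. It was -0.03 for the 24 listed genes of at least 500, against 0.05 for all 7097 such genes. Of these 24, which leave out MVD and ELOVL6, 45.8% were above 0, against 60.4% of all such genes. With leukotriene C4 the median of those 24 genes was 0.12, about the 0.11 of all genes of at least 500. Of the 24, 18 (75%) were above 0, against 72.0% of all such genes. After quantile normalization the medians were 0.02 and 0.03. With lipoxin A4 the median of the 26 was 0.03, with 15 above and 10 below 0, against 0.05 for genes of at least 500. Above 0 were 62.5% of the 24 and 62.8% of all such genes. With lipoxin B4 the median of the 26 was -0.08, with 16 below 0, against 0.05 for genes of at least 500. After quantile normalization it was -0.10 against 0.02. By pathway step, the lipoxin B4 medians were -0.07 for the mevalonate steps, 0.06 for the steps after lanosterol, -0.15 for the regulators and -0.23 for fatty acid synthesis, whose 4 measurable genes were all lower on their brightest probe sets. With lipoxin B4, 36.5%, 20.7%, 13.5% and 0.248% of genes of the same signal class were as low as ACLY, SCD, ACACA and FASN. In this comparison 59.6% of all genes of at least 500 were above 0 and 37.5% of the listed ones. Only FASN lay below the middle 95% of genes of its own signal class on all 4 arrays. PMVK did so with lipoxin A4 and SREBF1 with leukotriene C4, and MSMO1 lay above that range with lipoxin B4.

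**Figure D4:**
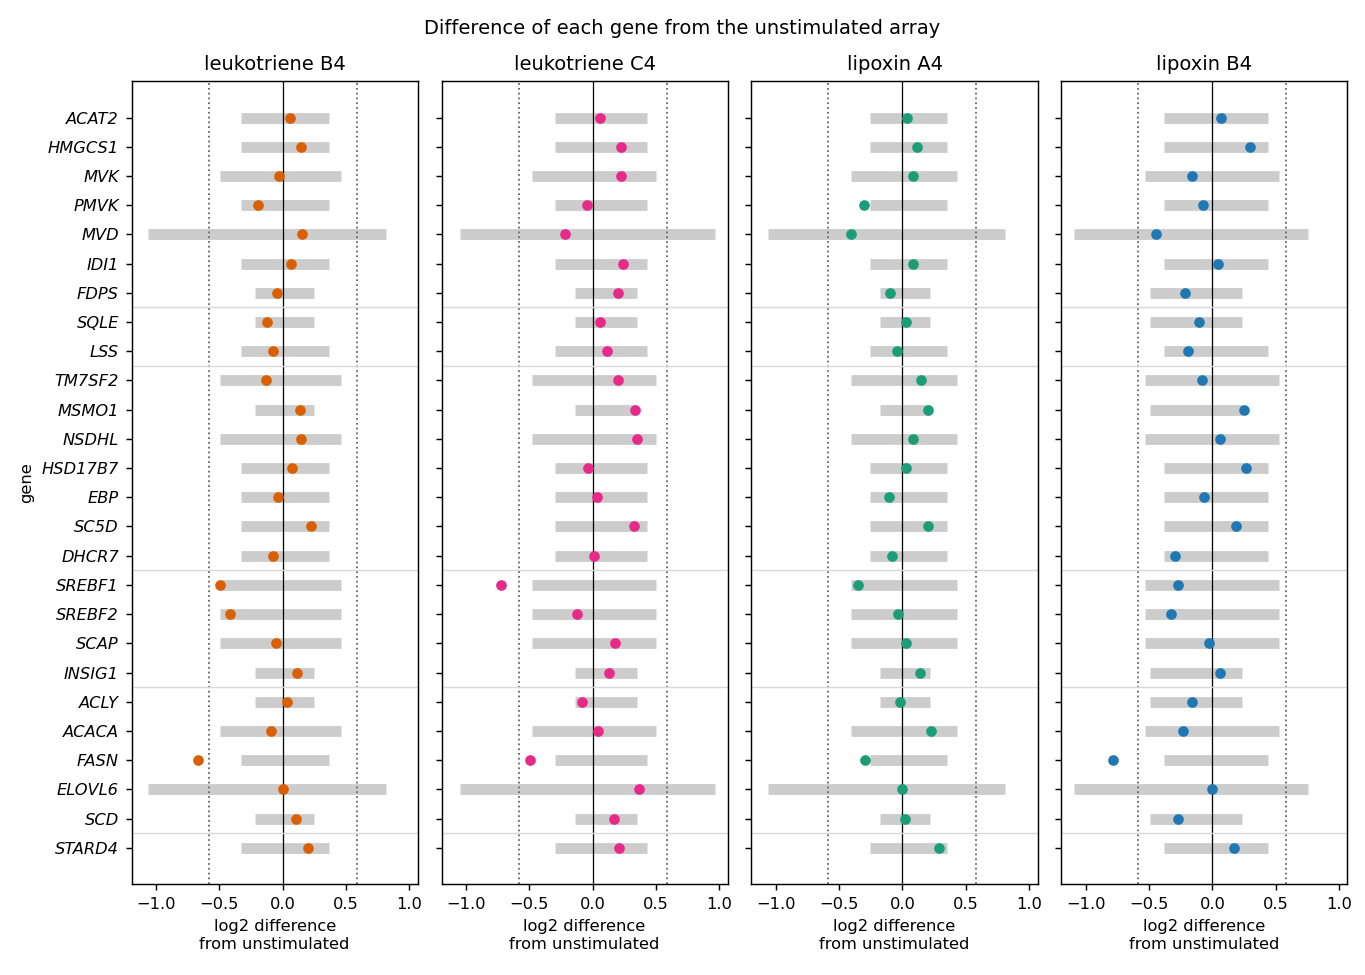
Log2 difference of each of the 26 genes from the unstimulated array, 1 panel per eicosanoid; grey bars span the middle 95% of all genes of the same signal class, and dotted lines mark 1.5-fold. Most points lie inside the bars, and FASN lies left of its bar in each panel.

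The 4 compounds were given at the same dose and time and can be set against each other in 6 pairs, each a difference between 2 arrays with no interval. Leukotriene C4 carries glutathione, whereas leukotriene B4 has only hydroxyl groups on its chain. Between these 2, 0 of 26 genes were 1.5-fold apart, against 10% of all genes and 0.902% of those of at least 500. The 24 listed genes of at least 500 leave out ELOVL6 and MVD. Of these, 20 (83.3%) were higher with leukotriene C4, against 64.1% of all such genes. Their median was 0.14, against 0.06 for all such genes, and after quantile normalization 0.10 against 0.02. The genes furthest apart were MVD (-0.37, lower with leukotriene C4), TM7SF2 (0.34) and SREBF2 (0.30), apart from ELOVL6, which leukotriene C4 brought over the floor. Lipoxins A4 and B4 are trihydroxy acids that differ in the position of their hydroxyl groups. Between them 0 of 26 genes were 1.5-fold apart, against 7% and 0.648%, with a median of -0.07 (lower with lipoxin B4) against 0.00. After quantile normalization the median of the 26 was -0.02. For the 24 genes of at least 500 it was -0.10, and -0.04 after quantile normalization, against 0.01 for all such genes. FASN (-0.49), ACACA (-0.45), SREBF2 (-0.29) and SCD (-0.29) were lower with lipoxin B4 than with lipoxin A4, while HSD17B7 (0.24) and PMVK (0.23) were higher. For ACACA this rests on 1 probe set, since the other gave 0.25 with lipoxin A4 and 0.22 with lipoxin B4 over unstimulated cells. For SREBF2 the second probe set gave -0.02 and -0.09 and did not show a gap of that size.

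Across the classes the widest gap was between leukotriene C4 and lipoxin B4. Of the 24 listed genes of at least 500, 20 (83.3%) were lower with lipoxin B4, against 62.1% of all such genes. Their median was -0.18, against -0.06 for all such genes, and after quantile normalization -0.11 against -0.01. SCD (-0.44), FDPS (-0.42) and MVK (-0.38) were the lowest and SREBF1 (0.45) the highest, and 0 genes were 1.5-fold apart, against 9.72% and 1.44%. Over the 26 genes, lipoxin A4 against leukotriene C4 gave a median of -0.12 (-0.10 for the 24) and 0 genes apart (9.44% and 0.93%), with SREBF1 at 0.37. Lipoxin A4 against leukotriene B4 gave a median of 0.01 and 0 genes apart (7.6% and 0.817%), with SREBF2 at 0.38, FASN at 0.37 and MVD at -0.56. The second SREBF2 probe set went the other way, with -0.02 for lipoxin A4 and 0.05 for leukotriene B4 over unstimulated cells. Its dimmest gave 1.26 and 1.24. Lipoxin B4 against leukotriene B4 gave -0.03 and 1 gene apart (7.08% and 0.86%), MVD at -0.60, which was no longer 1.5-fold apart after quantile normalization or on the values as deposited. These pairs share arrays. Against unstimulated cells, the median of the 709 genes of 8000 and over was 0.12 with leukotriene C4 and -0.09 with lipoxin B4.

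The rest of the pathway, 63 genes in 4 lists of which 51 were measured, also gave few differences. For sterol sensing and SREBP processing, 0 of 8 measured genes were 1.5-fold apart with any compound, and the medians were 0.18, 0.11, 0.12 and 0.12 for the leukotrienes (B4, C4) and lipoxins (A4, B4). All 8 lay above 0 in each comparison on their brightest probe sets, by 0.02 to 0.49. Of all genes with a mean signal of at least 500, 60.4%, 72.0%, 62.8% and 59.6% were above 0 in the same order. Among the 8 were MBTPS2, a protease that releases SREBPs, and INSIG2, the second retention protein. MBTPS2 had 1584 in unstimulated cells and 1782, 2221, 1760 and 1958 with the compounds. INSIG2 had 511, and 587, 673, 545 and 546. When all probe sets of a gene were averaged, the medians of this list were 0.02, -0.01, -0.01 and -0.04, so the direction rests on the brightest probe sets. The isoprenoid branch and other sterol genes had 0 of 14 apart and medians of 0.06, 0.12, 0.08 and 0.03. Acetyl-CoA supply, elongation, desaturation and activation of fatty acids had 1 of 21, LPIN2, a phosphatidate phosphatase, which was higher with leukotriene B4 (881 against 576, log2 0.61) and was at 574, 805 and 782 with leukotriene C4 and the lipoxins (A4, B4). The list of liver X receptors and their targets had 1 of 8 lower with leukotriene B4, 1 with leukotriene C4, 0 with lipoxin A4 and 1 with lipoxin B4. LPCAT3, a lysophospholipid acyltransferase, accounted for the leukotrienes, with 805 in unstimulated cells, 537 and 517 with leukotrienes B4 and C4, and 788 and 565 with lipoxins A4 and B4 (log2 -0.59, -0.64, -0.03 and -0.51). ABCG1, a sterol exporter, accounted for lipoxin B4, where it lay under the floor against 80.8 in unstimulated cells. NR1H3, the liver X receptor alpha, had 342, 432, 400, 456 and 464 in the same order of arrays, and was lowest on the unstimulated array. The other receptors measured in the list did not follow it. RXRB gave log2 differences of -0.49, -0.40, -0.24 and -0.50, and RXRA gave -0.17, 0.29, -0.43 and 0.15. A link of these receptors to SREBF1 was not tested.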

How the data were processed

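The authors deposited 1 linear intensity per probe set, for 54675 probe sets on each of 5 arrays. Per the submitters' processing notes these came from GCOS 1.4; no settings are stated. The mean without the highest and lowest 2% was 500.1 on every array, so the deposited signals had been scaled. Genes were named from the platform annotation where a probe set carried 1 symbol (41097 probe sets; 41043 gene identifiers matched to GRCh38.p14). From these signals log2 values were computed, each array was shifted so that the median of the upper 50% of probe sets was equal, and values under the 50th percentile (48.7) were set to that floor. Each of 15374 measured genes took the values of its brightest probe set (by mean signal). A difference of at least 1.5-fold was counted. No test was possible with 1 array per group, and the number of arrays limits the precision. The listed genes, the pathway lists and the rules were chosen with earlier results of these data known. All listed genes are named. For the related lists the rule was to name up to 4 per list that were 1.5-fold apart. MBTPS2, INSIG2, NR1H3, RXRA and RXRB were not and are named outside that rule. Alternatives were quantile normalization, the values as deposited, floors at the 30th and 70th percentiles, means over probe sets and a 2-fold threshold. The calculation was tested on simulated data. Python 3.11.15, numpy 2.4.6 and pandas 2.3.3 were used.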

Additional observations from a re-analysis of the deposited data

How the results depend on the processing

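No paired analysis was possible because each group has 1 array. With no replicates, a median counted as moved when it shifted by more than its SD over the comparisons with unstimulated cells or between compounds. The 3 called differences of listed genes kept their direction under all 6 alternatives tried on them: FASN ran from -0.82 to -0.67 with leukotriene B4 and from -0.82 to -0.50 with lipoxin B4, and SREBF1 from -1.09 to -0.72 with leukotriene C4. Other floors, or the mean over probe sets of at least 500, could not change them. Their signals lie well above the floors, and their other probe sets are dimmer than 500. The values as deposited shift all genes of an array alike. Only quantile normalization and the mean of all measured probe sets could thus act on these genes in particular. The median of the listed genes moved with leukotriene C4, to 0.021 after quantile normalization. Counts at 1.5-fold against unstimulated cells became 2 with leukotriene C4 after quantile normalization (FASN was added) and 2 with the mean of all measured probe sets. They became 0 for lipoxin B4 with that mean, and 1 for lipoxin A4 with a floor at the 30th percentile (ELOVL6, then read by another probe set). At 2-fold they were 0 for both leukotrienes and for lipoxin B4. Between compounds, the count for lipoxin B4 minus leukotriene B4 was 0 after quantile normalization, as deposited, at 2-fold and over probe sets of at least 500 (an alternative chosen after seeing the data), and 2 with the floor at the 30th percentile. With that floor it was 1 for leukotriene C4 minus leukotriene B4, 1 for lipoxin A4 minus each leukotriene and 1 for lipoxin B4 minus lipoxin A4. With the mean of all probe sets it was 1 for leukotriene C4 and 1 for lipoxin A4 minus leukotriene B4, and 1 for lipoxin B4 minus leukotriene C4. Leaving out ELOVL6, also chosen afterwards, moved no median or count.

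Medians of the related lists moved as follows, and the cause was not tested. After quantile normalization, sterol sensing and SREBP processing had 0.15 with leukotriene B4, 0.041 with leukotriene C4 and 0.092 with lipoxin A4. The isoprenoid branch had 0.027 and the liver X receptor list 0.054 with leukotriene C4, the latter also -0.0058 with lipoxin B4, and the fatty acid supply list had -0.018 with leukotriene C4 and -0.019 with lipoxin A4. As deposited, sterol sensing had 0.15, 0.045 and 0.090 with the same 3 compounds. With leukotriene C4 the isoprenoid branch then had 0.052, the fatty acid supply list -0.0067 and the liver X receptor list 0.044, and the last had 0.017 with lipoxin A4. With the floor at the 70th percentile it had -0.017 with leukotriene B4. With the mean of all measured probe sets and the compounds in the order leukotrienes (B4, C4) and then lipoxins (A4, B4), sterol sensing had 0.018, -0.0067, -0.010 and -0.043 and the fatty acid supply list 0.060, 0.022, -0.016 and -0.043; the liver X receptor list had 0.12 and 0.055 with the leukotrienes. Over probe sets of at least 500, the liver X receptor list had -0.17, 0.076, -0.031 and -0.067 in that order, sterol sensing had 0.079 and 0.078 with the lipoxins, and the fatty acid supply list had 0.059 with leukotriene B4. Of all measured genes at least 1.5-fold apart, the share that was higher was 32.8%, 46.5%, 32.7% and 29.2% in that order, and 40.5%, 50.9%, 46.5% and 46.8% after quantile normalization.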
